A study of Strongylocentrotus purpuratus with 10 samples.

Results

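The genes described here carry the signal, the regulators and the products of the pigment cell lineage of the purple sea urchin Strongylocentrotus purpuratus. They are the rows of the authors' deposited differential table that bear the names Delta (2 rows), Gcm, Pks1 or Mitf, together with the flavin monooxygenase row LOC589643, named Fmo2. This gives 6 of the 3542 genes in that table, from 5 gene names. The ChIP peaks within 10 kb of the 5 genes that could be placed on a scaffold were added, 14 of 8943 peaks in the lists of both antibody libraries. RNA-seq compared whole embryos whose zygotes received 2 to 4 pl of a 200 µM morpholino against the start of brachyury translation (3 libraries) with embryos labelled as wild type controls (3 libraries), all at the blastula stage. The description attached to these libraries dates them to 24 h after fertilisation. Whether controls were injected, and with what, was not given in the sources used here. ChIP-seq of whole embryos at 24 h, fixed in 1% formaldehyde for 12 min, comprised 2 antibody libraries and an input for each. They are called antibody libraries 1 and 2 here, since the labels do not say whether these are different antibodies or different samples.

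Pigment cells of the sea urchin larva come from the non-skeletogenic mesoderm. The founder cells of the skeleton present the ligand Delta to the cells around them. Notch in the receiving cells, acting with the DNA-binding protein Su(H), switches on Gcm, and Gcm in turn drives a battery of pigment genes. The red-brown pigment is a naphthoquinone, whose synthesis needs the polyketide synthase Pks1 and flavin monooxygenases. Brachyury itself belongs to the T-box transcription factors and acts in the endoderm and the mouth region at these stages.

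The oligonucleotide that defines the RNA comparison is shown because every fold change below is a contrast with embryos that received it. It is 23 bases long, is written 5′ to 3′ and comes from the sample labels. The capitals mark both places where it reads CAT, the complement of a start codon. Which of them faces the start codon of brachyury was not given in the sources used here.

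brachyury morpholino: cgctCATtgcaggCATagtggcg

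The deposited table gives 1 log2 fold change, 1 p and 1 adjusted p per gene, with no error and no value per library, so the spread between libraries and the depth of each library are unknown. It does not say which group is the numerator, and values are therefore given as positive or negative. Every gene in it has an adjusted p under 0.05, so presence in it was part of how the members were chosen. Positive values made up 48.4% of the genes and negative values 51.6%, and their medians on the log2 scale of the authors' deposited table were 0.93 and -1.19. The brachyury transcript stood at 1.18 in the authors' deposited table, which is no check of a morpholino that blocks translation. Since whole embryos were sequenced, fewer cells of a type and less RNA per cell cannot be told apart.

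The regulators among the 6 members did not share a sign. Both Delta rows and Gcm were positive, while Mitf, Pks1 and Fmo2 were negative, 3 genes on each side, which is close to the 48.4% and 51.6% of the whole table. The negative members had the lower adjusted p-values: in the authors' deposited table all 3 ranked among the 695 lowest of 3542, while the positive members ranked 868, 1845 and 2372. Adjusted and raw p-values do not follow 1 order in that table, so these ranks may not be on 1 scale. The raw p-values of the negative members were lower than those of the positive members too.

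Delta is the membrane-bound ligand of Notch. Its main gene, delta, stood at a log2 fold change of 1.02, a 2.03-fold difference between the groups (adjusted p 0.00439 in the authors' deposited table). Among the 1714 positive genes, 725 had a larger value. The second Delta row, LOC115921237, stood at 1.46 on the same scale, a 2.76-fold difference (adjusted p 6.83e-05 in the authors' deposited table). The values of the pair differed by 0.44 on the log2 scale, and both were above the median of positive genes.

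The second row is called Delta only through its annotation. Its description names the gene delta and not its own identifier, and it carries the same WHL transcript identifier as delta. In the table, 1097 of the 3274 rows whose description names a gene (33.5%) name a gene other than the row's own, and the second Delta row is the only member among them. The RefSeq gene table of Spur_5.0 gives the rows spans of similar length, 15202 bp for delta and 16003 bp for LOC115921237. Whether they are alleles, duplicates or assembly copies was not tested, and reads may be divided between them, so each value is uncertain.

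Other rows that share an annotation in this way mostly had the same sign. The table holds 294 pairs of rows with 1 WHL identifier, and 269 pairs (91.5%) had 1 sign. The median absolute difference within a pair was 0.33 on the log2 scale, and 121 pairs differed by more than the Delta pair did.

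**Figure D1:**
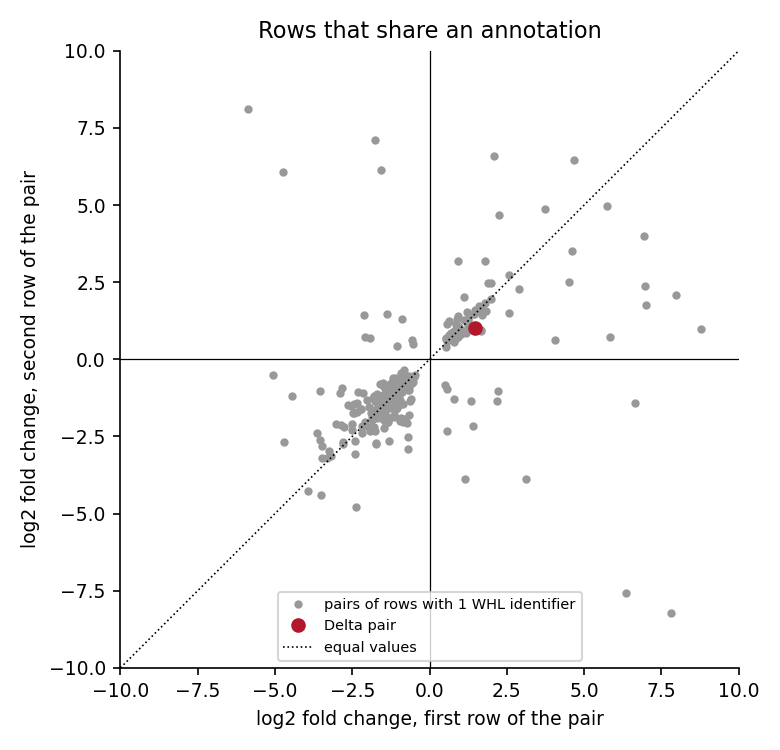
Log2 fold change of the first row (x axis) against the second row (y axis) for the 294 pairs of rows that share a WHL identifier in the authors' deposited table; grey points are pairs, the red point is the Delta pair and the dotted line marks equal values. The Delta pair, at 1.46 and 1.02, differs by 0.44, more than the median pair difference of 0.33, and 269 pairs have 1 sign.

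Gcm, named after the glial cells missing gene of Drosophila, is a zinc-containing transcription factor and an early regulator of pigment precursors. Its log2 fold change was 0.76, a 1.69-fold difference (adjusted p 0.0128 in the authors' deposited table). This was the smallest change and the weakest adjusted p of the members, and 1140 of the 1714 positive genes had a larger value. Mitf is a basic helix-loop-helix leucine zipper factor, known from vertebrates as a regulator of melanocytes. Its log2 fold change was -1.18, a 2.26-fold difference (adjusted p 1.38e-05 in the authors' deposited table). This value lay at the middle of the negative side, since 922 of 1828 negative genes lay further from 0. The regulators Gcm and Mitf thus stood on opposite sides of the table.

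Pks1 (LOC588806) makes the polyketide from which the pigment is built. Its log2 fold change was -1.60, a 3.03-fold difference (adjusted p 4.52e-06 in the authors' deposited table). The monooxygenase Fmo2 (LOC589643), one of a family of enzymes that oxidise small molecules, stood at -1.92, a 3.78-fold difference (adjusted p 1.49e-08 in the authors' deposited table). Both enzymes were further from 0 than most negative genes: 543 of 1828 exceeded Pks1 and 361 exceeded Fmo2. A long non-coding RNA gene, LOC115929358, shares 4617 bp of span with Fmo2, and whether the authors' counting used strand was not given in the sources used here. Reads of this pair may therefore not be separable.

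**Figure D2:**
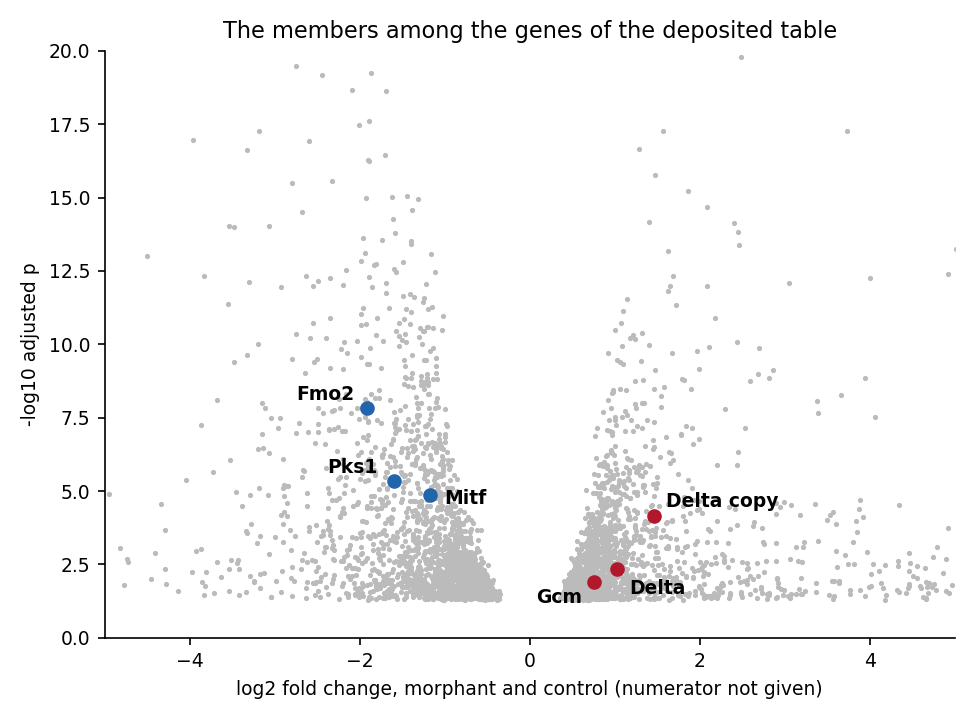
Log2 fold change (x axis) against -log10 adjusted p (y axis) for the genes of the authors' deposited table; grey points are other genes, red points positive members and blue points negative members, and 149 genes lie outside the window shown. The negative members Fmo2, Pks1 and Mitf lie higher than the positive members Delta, its copy and Gcm.

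Other enzyme genes matched by name from a pigment cell list were on the same side as Pks1 and Fmo2. Whether they act in pigment cells was not tested. A list of 26 names of pigment cell enzymes, regulators and products matched 13 genes in the table under 7 names. Of these, 12 were negative and 1, Gcm, was positive, beside 51.6% of negative genes in the whole table. Their median was -1.61 on the log2 scale, against -0.51 over all genes of the authors' deposited table. The list includes 4 members. Without them, its 9 other genes were all negative, with a median of -2.24. Only the names Fmo and Sult were matched with any number. With family names for the whole list, matched after the data were seen, 10 of 53 genes were positive and 43 negative. The share of the list's names that the authors measured is unknown, because genes that missed the threshold are not in the table.

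By enzyme family, another monooxygenase was negative beside Fmo2. In the authors' deposited table Fmo5 (LOC588371) stood at -2.32 (adjusted p 1.86e-08). All 4 cytosolic sulfotransferase genes in the table were negative too. These enzymes transfer sulfate to small molecules, and they held the 3 largest changes of the list. The values were -3.48 for a Sult1c row (LOC115926094), -2.92 for Sult1b1 (LOC100889865), -2.82 for the other Sult1c row (LOC592500) and -2.24 for a second Sult1b1 gene (LOC589239) in the authors' deposited table. The synthase Papss makes the sulfate donor that sulfotransferases use. Its rows LOC115918136 and LOC576349 have values of -1.03 and -0.99 in the authors' deposited table. LOC592500 lies outside the naming rule and was added as the partner of LOC115926094. The pairs of Sult1c and of Papss rows each share 1 WHL identifier and are uncertain in the way of the Delta pair.

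In the authors' own class of oxidative biotransformation genes, to which they assigned Fmo2, 14 of 19 genes were negative. Their Notch signalling class held 4 genes, all positive. It comprised both Delta rows, Pen2 and a gene named NotchL but described as a fibrillin. Their class of other transcription factors, which holds Gcm, had 7 positive genes and no negative one.

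Of a list of 37 names for Delta and Notch signalling, 2 were matched in the table, Delta and Pen2. Pen2 (LOC586668) is a subunit of the gamma-secretase complex that cuts Notch after ligand binding, and it stood at 0.81 on the log2 scale (adjusted p 0.00757 in the authors' deposited table). No row bore the exact name of Notch itself, of Su(H) or of HesC, so their values are unknown. The authors' deposited table does hold a row named NotchL_94 (LOC583708), described as a homologue of Notch 1, at -0.52 (adjusted p 0.0109). It entered when family names were matched after the data were seen, and the list then had 14 genes, 7 positive and 7 negative.

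Regulators of the non-skeletogenic mesoderm stood on both sides of the table. A list of 35 names for these regulators and for the inputs to Delta matched 16 genes under 14 names, 8 positive and 8 negative, with a median of 0.03 in the authors' deposited table. The ETS factor Erg and the zinc finger gene Z166 (LOC589099) were negative, at -1.41 and -1.34 in the authors' deposited table. Markers of the blastocoelar cells, the other cell type of this mesoderm, had 4 positive rows, those of GataC, Ese and Scl, and 1 negative row, that of Erg. The authors' deposited table gives GataC 1.17, the ETS factor Ese (LOC582205) 0.93, and the rows of the basic helix-loop-helix gene Scl 1.62 (LOC587670) and 1.60 (LOC115925133). The nuclear receptor Shr2 and Dac (LOC586986), a dachshund homologue, were positive at 0.77 and 0.80 there.

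**Figure D3:**
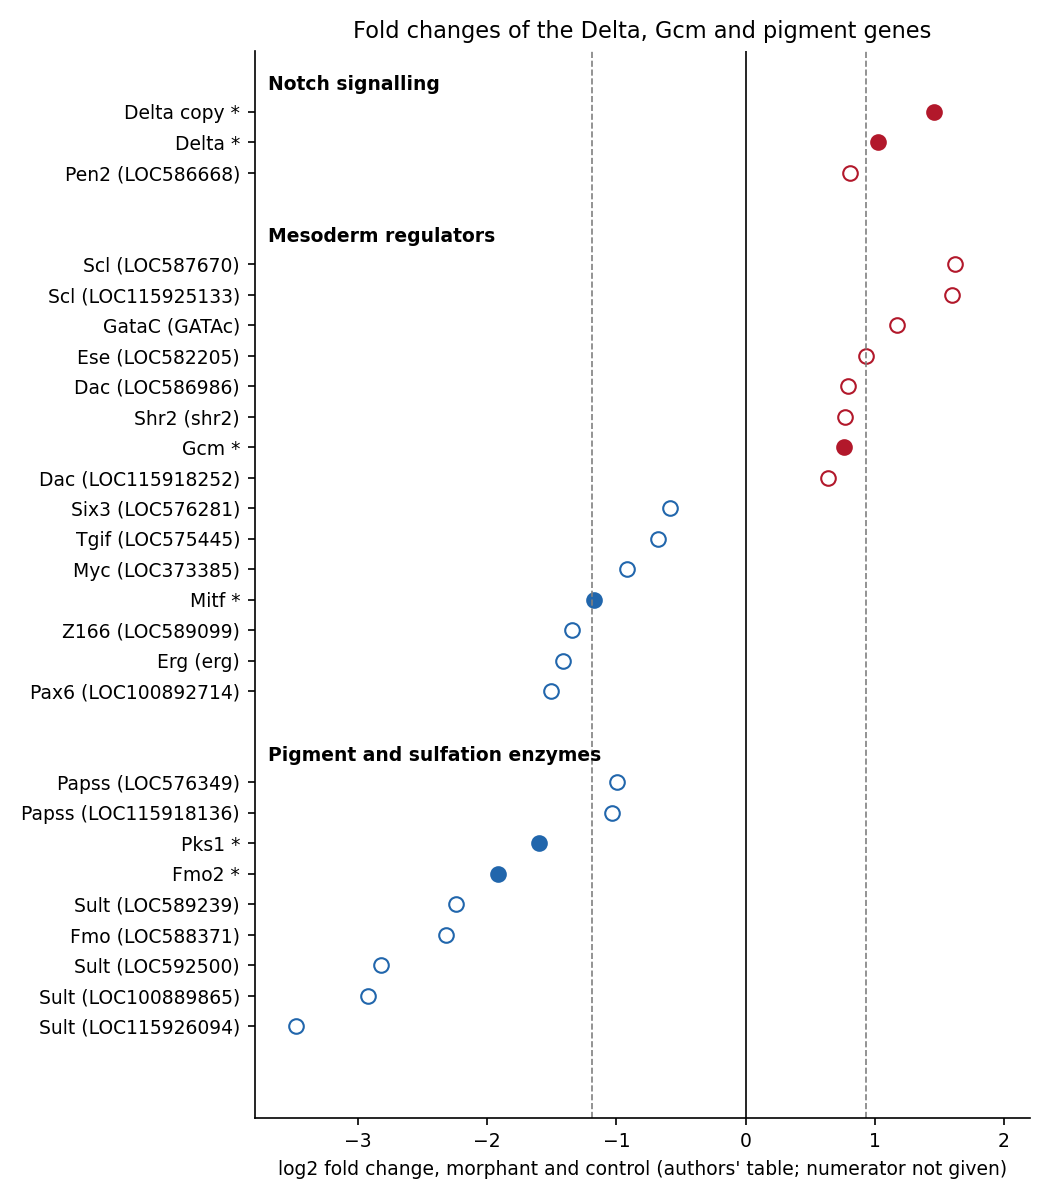
Log2 fold change (x axis) of genes of the Notch and mesoderm regulator lists, and of enzymes of the pigment list, in the authors' deposited table; filled points with an asterisk are members, open points are other genes, red is positive and blue negative, and dashed lines mark the medians of 0.93 and -1.19 of the positive and negative genes of the table. The enzyme rows shown are negative, from -0.99 to -3.48, and the regulators lie on both sides.

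Marker genes of other cell types in whole embryos moved as well. All 9 aboral ectoderm rows, all 3 apical neural rows and both oral ectoderm rows matched in the table were negative. Primary mesenchyme markers had 5 negative and 2 positive rows, and endoderm markers 1 of each. Negative genes made up 51.6% of the whole table. The part of these cell types in the values of the pigment genes was not tested.

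Genes that lie next to a member were in the table in 2 cases, named after their values were seen. Suvar3-9 (LOC577640), a histone methyltransferase gene 3739 bp from Mitf, was positive at 0.53 in the authors' deposited table, on the other side from Mitf. A transporter gene named Slc6a5-3 (LOC586383), 2701 bp from Fmo2, was negative at -2.36, on the same side as Fmo2.

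Peaks were read from the list of each antibody library and from the combined set. Score, fold over input and false discovery rate of a peak are the authors' values, each describes the peak within its own list, and 1 list per library gives no replicate spread. Genes were placed through the order of the RefSeq gene table, which names no scaffold and gives no strand or exons, so positions are relative to the ends of gene spans. Antibody library 2 had 7459 peaks with a median score of 0.72 and antibody library 1 had 1484 with a median of 0.57. Over 24774 placed protein-coding genes, 21.5% had a peak of library 2 within 10 kb, 5.82% a peak of library 1 and 1.61% a peak of the combined set.

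Of the 5 placed members, 4 had a peak of library 2 within 10 kb, 1 had a peak of library 1 and 3 had a combined peak. They held 13 peaks of library 2, and 10 of these lay inside a span or touched it. Gcm with 5 and Pks1 with 6 carried most of them, and 0.747% of placed protein-coding genes had 5 or more. Delta and Mitf had 1 each and Fmo2 had none. The median score of the 13 peaks was 0.92, their folds over input ran from 1.67 to 4.33, and 6 had a false discovery rate under 10%. For all of library 2, the median fold was 2.36 and 21.8% of peaks were under that rate. Library 2 peaks were denser on the scaffolds of Delta and Mitf, where 41.3% and 33.1% of genes had one, than on those of Gcm (16.1%) and of Pks1 and Fmo2 (21.6%).

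The delta gene spans NW_022145611.1 from 35186000 to 35201201 in Spur_5.0. Its peak, at 35203599 to 35203882, lay 2398 bp beyond the high end of the span. This peak had the highest score at any member, 2.02, and ranked 284 of 7459 in library 2. Its antibody signal was 2.69 against an input signal of 0.67, a fold of 4.03, with a false discovery rate of 10.34%. It is in the combined set and does not overlap a peak of library 1. No other gene lay within 10 kb of delta: the nearest genes were 34574 and 52911 bp away.

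The second Delta row lies on a scaffold that could not be placed, at positions 1814 to 17816 of a scaffold with 12 genes. On scaffolds outside the placed set, no peak of library 1 and none of the combined set starts before position 27816, the end of its 10 kb window. Library 2 has 2 such peaks, with scores of 0.61 and 0.59, and whether either is on that scaffold is unknown.

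The gcm gene spans NW_022145598.1 from 34773541 to 34780207. An overlapping pair of peaks, both in the combined set, sat at the low end of the span. The first, at 34773325 to 34773608, crossed the end and had a score of 1.61, a fold of 3.37 and a false discovery rate of 8.31%. The second, at 34773542 to 34773825, had a score of 1.88, a fold of 3.46 and a rate of 9.46%. The pair shares 67 bp, with midpoints 217 bp apart, and ranked 384 and 312 in library 2. Across placed protein-coding genes, 0.246% had 2 or more combined peaks within 10 kb.

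The remaining gcm peaks had lower scores and are not in the combined set. A peak at 34777377 to 34777660 had the highest fold at any member, 4.33, with a score of 0.95 and a distribution score of 0.59, the lowest of the member peaks. Others had scores of 0.57 inside the span and 0.53 outside it. The peak of 0.53 lay 7520 bp beyond the high end, within the span of LOC581974, which is not in the differential table. No peak of library 1 lay within 50 kb of gcm.

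**Figure D4:**
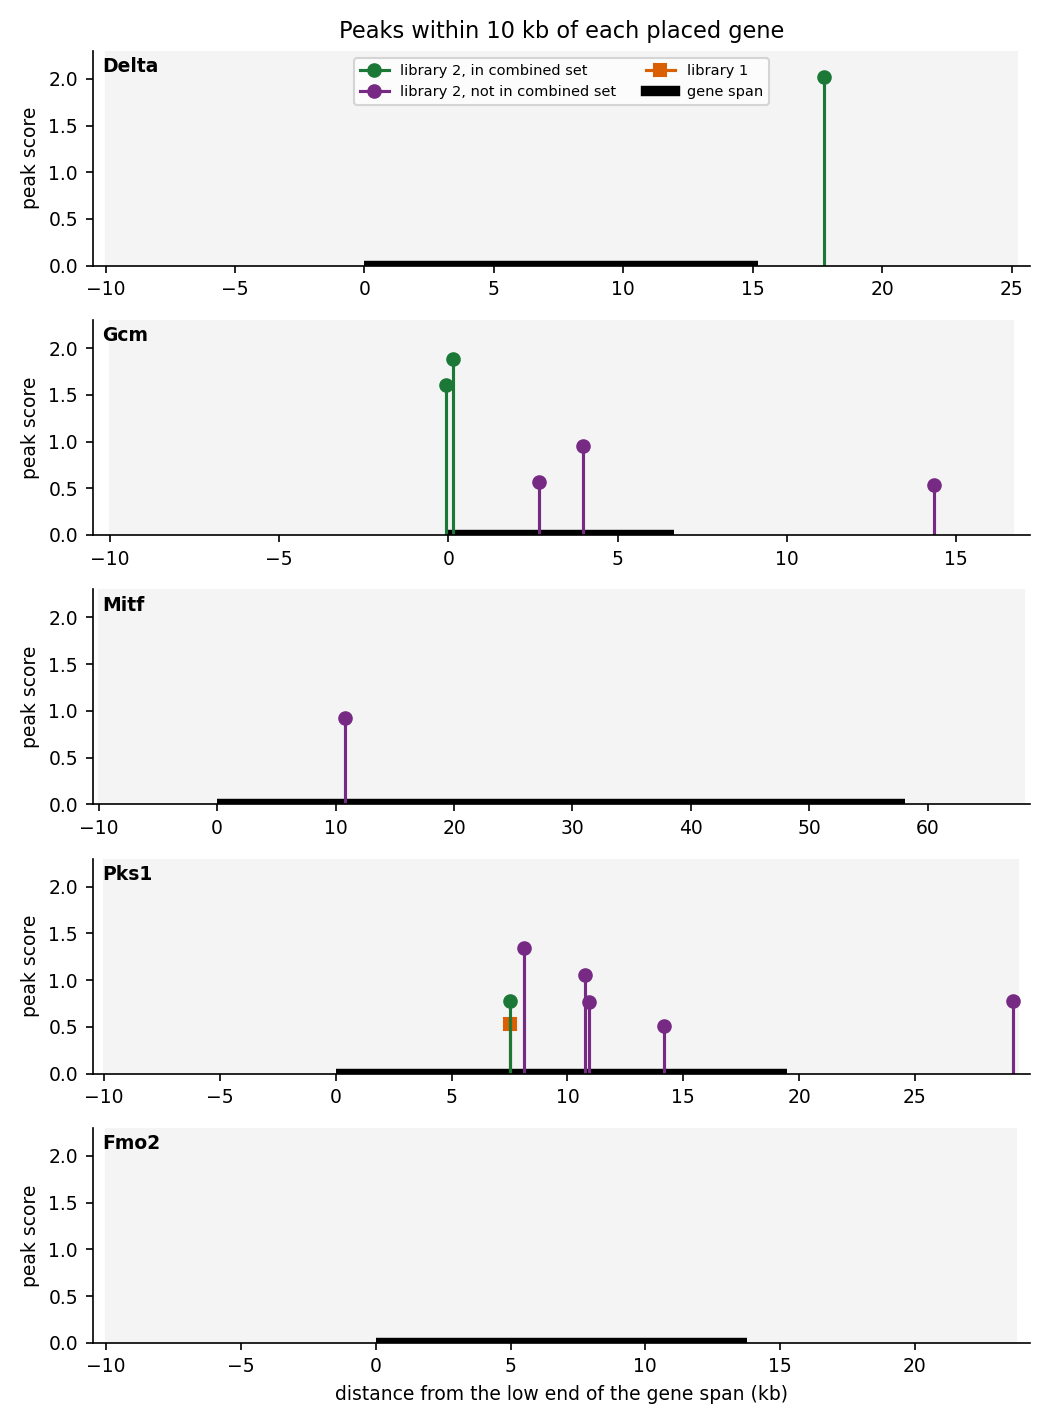
Peak score (y axis) against distance in kb from the low end of the gene span (x axis) for the peaks within 10 kb of each placed gene; black bars are gene spans, green points library 2 peaks in the combined set, purple points other library 2 peaks and the orange square the library 1 peak. The Gcm pair, at 1.61 and 1.88, sits at the low end of the span, the Delta peak of 2.02 lies beyond the high end, and the Fmo2 panel holds no peak.

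Pks1 spans NW_022145610.1 from 2708754 to 2728214 and was the only member with peaks from both libraries. Its library 1 peak, at 2716207 to 2716342, lay wholly within the library 2 peak at 2716149 to 2716432, with midpoints 16 bp apart. Scores at this shared place were low in both lists, 0.53 in library 1 and 0.78 in library 2, where the false discovery rates were 35.54% and 18.26%. It is also the only combined peak at Pks1. The higher peaks of the gene stood outside the combined set, with scores of 1.34 at 2716718 to 2717001 and 1.05 at 2719373 to 2719656 and rates of 7.34% and 6.65%. The second of these shares 135 bp with a peak of score 0.77. Among the 488 combined peaks that come from library 2, 168 overlap a peak of library 1 and 320 do not, so the set follows neither overlap alone nor score alone. The outermost peak, 9647 bp beyond the span with a score of 0.78, lies inside the neighbouring gene LOC587252, which is not in the differential table.

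Mitf, with the longest span of the members at 58097 bp, spans NW_022145612.1 from 40160572 to 40218668. It held 1 library 2 peak, at 40171244 to 40171527, with a score of 0.92, a fold of 2.76 and a false discovery rate of 9.04%. Fmo2 spans NW_022145610.1 from 27927442 to 27941203 and had no peak of any list within 10 kb. The nearest, in library 2, lay 32851 bp away with a score of 0.73 and is inside LOC579538.

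**Figure D5:**
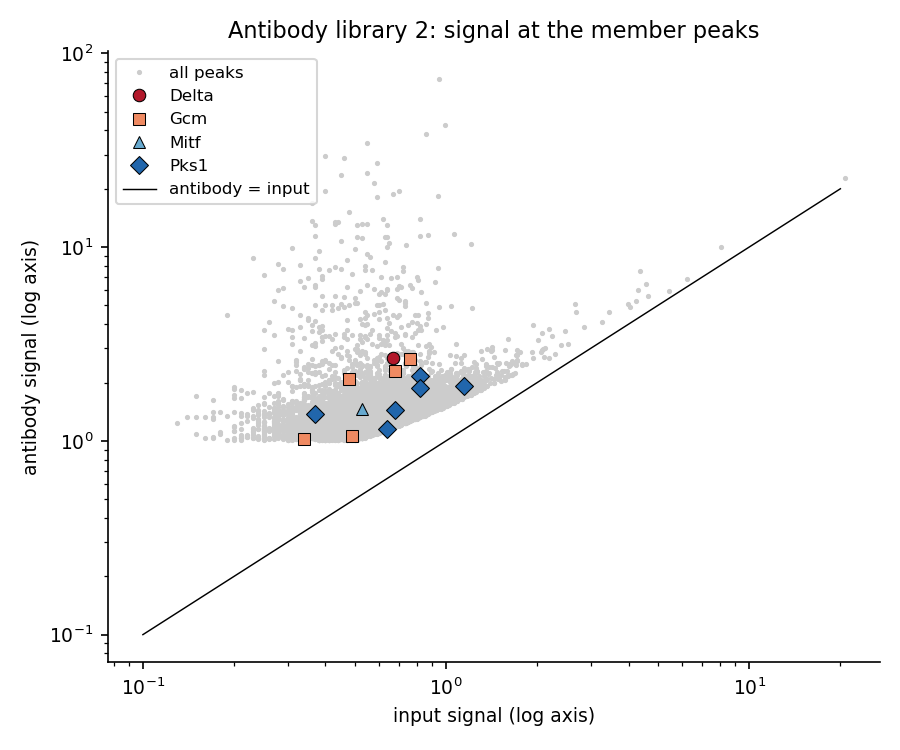
Antibody signal (y axis, log scale) against input signal (x axis, log scale) for all 7459 peaks of antibody library 2 (grey) and the 13 member peaks (coloured by gene); the line marks equal signals. The member peaks have input signals from 0.34 to 1.15 and antibody signals up to 2.69. Their median score is 0.92, against 0.72 for all peaks of this library, whose highest score is 41.68.

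Regulators had library 2 peaks more often than enzymes did, in a division made after the values were seen and with no test of the difference. Of 14 placed genes of the mesoderm regulator list, 12 (85.7%) had a library 2 peak within 10 kb, and without Gcm and Mitf it was 10 of 12. Of the 10 enzyme rows of the pigment list, 2 had one, and without Pks1 it was 1 of 9. The share over all placed protein-coding genes was 21.5%. Among those in the differential table it was 38.7% for positive and 22.3% for negative genes. The other peak lists gave less of a contrast. Library 1 had a peak within 10 kb of 4 of the 14 regulators and 3 of the 10 enzyme rows. A combined peak lay there for 4 of the regulators and 2 of the enzyme rows. The shares over all placed protein-coding genes were 5.82% for library 1 and 1.61% for the combined set. All 10 of these enzyme rows were negative, and the placed regulators had 7 genes of each sign. Both rows named PksL, which were positive, are not among these enzyme rows. Spans differed as well, with a median of 25616 bp for the regulators, 15617 bp for the enzymes and 10226 bp for all placed protein-coding genes, and the part of length in these shares was not tested.

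The peaks of the regulators ranged widely in score. GataC had 8 library 2 peaks, none with a score above 0.78 and none in the combined set. Z166 had 6, the highest at 1.08. The next 2 genes, with combined peaks, were named after their values were seen. Tgif (LOC575445), a homeobox gene of the same list which stood at -0.68 in the authors' deposited table, had a combined peak of score 2.55 that overlaps a peak of library 1. The second Dac row, LOC115918252, a span of 402 bp, had the highest peak score at any gene of the list, 23.66. The false discovery rate of this peak was far above 10%. Other library 2 peaks with scores near it had similarly high rates, so the rate does not set this peak apart. The peak with the highest score of library 2, 41.68, went the other way, with the lowest rate of that list. How reliable the peak at this Dac row is was not tested. Library 1 had 1 peak within 10 kb of the same row. The other Dac row, LOC586986, has a span of 29009 bp. It had 2 library 1 peaks, and 2 library 2 peaks with a top score of 0.96 and none in the combined set. No peak of library 2 lay within 10 kb of Erg or of the placed Scl gene.

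Among the enzymes, the sulfotransferase gene Sult1b1 (LOC100889865) had a combined peak 860 bp outside its span, with a score of 1.60, a fold of 3.90 and a false discovery rate of 8.20%. Fmo5 had 1 peak of library 1, 6223 bp outside its span with a score of 0.53, and none of library 2. The rate of this library 1 peak was 35.74%, and no peak in that list had a rate under 10.87%.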

How the data were processed

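Per the submitters' processing notes, BWA 0.7.17, DESeq2 1.28.1, Salmon 0.11.3 and Trimmomatic 0.38 were among the tools, their roles and the peak caller not being stated. For each gene the authors deposited a log2 fold change, a p-value and an adjusted p-value. The adjusted p-values do not follow the raw p-values in 1 order: adjusted over raw p is 7.86 for Gcm and 7.55 for Delta, although the raw p of Delta is lower, which a single Benjamini-Hochberg step over 1 list cannot give. Peak score, antibody and input signal, fold over input, distribution score (a fraction) and false discovery rate (in percent) are deposited by the authors, per the file headers. The deposited score equals the difference of the signals times the distribution score, within 0.02, for 100% of library 1 and 99.99% of library 2 peaks. The scaling of the signal and the rule of the combined set were not given in the sources used here.

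No gene was tested again, because the table gives no values per library; genes were counted by direction, with no test. Blocks of rising start longer than 20 Mb in the Spur_5.0 gene table were paired in order with the 21 scaffolds holding over 100 library 2 peaks. All peaks end before the last gene in 21 of 21 pairs, against 10 of 20 when shifted by 1. Distances run from the nearest peak edge to the gene span, with positions counted from 1.

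Members and lists were chosen with earlier results of these data known. Names were matched exactly, without prefix, case, punctuation and copy mark, with any number for Fmo and Sult. Genes named are the members, brachyury, up to 10 genes per list by adjusted p and genes sharing a member's peaks; exceptions are said. Some list genes are counted but not reported here by name. Overlap and name matching were tested on simulated data. Python 3.11.15, numpy 2.4.6, pandas 2.3.3 and matplotlib 3.10.9 were used.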

Additional observations from a re-analysis of the deposited data

How the results depend on the processing

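No paired analysis was possible because the deposited table holds no values per library; for the same reason other normalizations, a filter on low counts and leaving out an RNA library were not run. Motif counts were not run, since no genome sequence was used here. With an adjusted p under 0.01, or a log2 fold change of 1 or more in size, the members numbered 5, as Gcm was lost under each, and the mesoderm regulators fell from 16 to 8 under the second. Family names, chosen after seeing the data, raised the Notch list from 3 to 14 genes (7 positive and 7 negative) and the pigment list from 13 to 53 (10 positive and 43 negative). The 14 peaks at members became 5 at a score of at least 1, 6 at a rate under 10% and 0 at a fold of at least 5. In the combined set, an alternative chosen after seeing the data, they became 4. The cut on the rate leaves out the Delta peak, whose score is the highest at any member. In library 2, rates under 10% lay mostly at middle scores. Leaving out 1 antibody library left 1 to 13 peaks: 13 without library 1 and 1 without library 2. The other 16 of 24 alternatives, distances of 5 and 50 kb among them, stayed within 1.5 times. Depth and replicate spread are unknown, so the precision of every value is too.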

Other observations

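Some families related to list genes were matched by family name after the data were seen, and 4 of them are given here beside the 51.6% of negative genes in the whole table. In the authors' deposited table, all 6 genes named after macrophage migration inhibitory factor, a secreted cytokine, were negative, from -0.85 (Mif6, LOC115919029) to -2.65 (Mif4, LOC577038). Of 11 scavenger receptor cysteine-rich genes, which encode receptors of immune cells, 10 were negative, with a median of -1.72 on the log2 scale of the authors' deposited table; the exception, Srcr144 (LOC575602), stood at 0.91. These families hold rows that share an annotation: the 6 Mif rows carry 4 WHL identifiers and the 11 scavenger receptor rows carry 8.

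The polyketide synthase family had 2 positive rows and 1 negative row. Both rows named PksL and described as polyketide synthase 2 were positive, at 1.24 (LOC115922158) and 1.09 (LOC592147) in the authors' deposited table, where Pks1 stood at -1.60. Neither had a peak of any list within 10 kb.

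All 3 rows named Pofut1 were negative, and the protein of that name adds fucose to Notch, but one of them (LOC764606, -2.36 in the authors' deposited table) is described as a D-dopachrome decarboxylase. The share of rows whose description names another gene was 26.5% among positive and 39.8% among negative genes.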
